A study of Mus musculus with 6 samples.

Results

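Genes that make, burn or carry ketone bodies were followed in mouse kidney with and without overexpression of adiponectin, the hormone encoded by *Adipoq*. The 8 genes were chosen by symbol, and they are *Bdh1*, *Bdh2*, *Oxct1*, *Acat1* and *Aacs*, which encode enzymes, and *Slc16a1*, *Slc16a7* and *Slc5a8*, which encode transporters, and together they make up 8 of the 54532 genes in the deposited table. RNA came from whole kidneys of KsprtTA mice (Control, 3 libraries) and of mice that carry KsprtTA together with an adiponectin transgene under a tetracycline-responsive promoter (KSPAPN, 3 libraries). The Ksp promoter drives the doxycycline-dependent activator rtTA in the tubular epithelium of the nephron, proximal tubule and collecting duct included, so every Control mouse carries the activator too. Both groups ate chow with doxycycline at 600 mg/kg for 4 days. The mice were male and on a C57BL/6 background, no source used here gives their age, and the labels call the Control genotype WT. Each library pooled RNA of 3 mice, so that an SD below is one between pools of mice, not between single mice.

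Acetoacetate and 3-hydroxybutyrate are made mostly in liver mitochondria from fatty acids and are burned in other organs, the kidney among them. In the cells that burn them, 3-hydroxybutyrate is oxidised to acetoacetate, a coenzyme A is transferred to it from succinyl-CoA, and a thiolase cleaves the product to acetyl-CoA. The kidney also filters both acids and takes them back from the tubular fluid by sodium-coupled transport.

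The libraries held between 17183358 and 20871173 counts on genes, the most in KSPAPN replicate 1. *Adipoq* had between 0 and 2 counts in the Control libraries and between 17483 and 26811 in the KSPAPN libraries, so no library went against its label. All 8 ketone body genes passed the filter on low counts and were among the 16017 genes tested with edgeR's quasi-likelihood test. A gene was called at a Benjamini-Hochberg adjusted p under 0.05 over all genes tested. Levels are given as FPKM, fragments scaled by transcript length and a size factor of the library, which can be compared between genes. The deposited FPKM do not follow total counts alone. *Bdh1* had 3384 counts and 46.97 FPKM in Control replicate 1, and 1891 counts and 20.88 FPKM in KSPAPN replicate 1. Total counts were 18205023 and 20871173 there, and FPKM per count was lower in KSPAPN replicate 1 than these totals alone give. Differences are given as the log2 fold change of KSPAPN over Control from edgeR with its standard error (SE). Symbols and positions come from GENCODE M21 (GRCm38).

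One gene of the 8, *Bdh1*, was called, and it fell (2.65% of all genes tested were called in either direction and 2.25% were called lower). All 8 log2 fold changes lay below 0, against 48.1% of all genes tested. An unadjusted p under 0.05 with a lower level in KSPAPN was found for 6 of the 8, against 11.2% of all genes. In 5 of the 8 the FPKM of every KSPAPN library lay below that of every Control library, against 13.5% of all genes. The median log2 fold change of the 8 was -0.43, and that of all genes tested was 0.012. These shares describe a list of related genes that share the same 6 libraries, and that was chosen with earlier results of these data known. The shares cannot be told apart from that choice, and no test was made over the list.

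**Figure D1:**
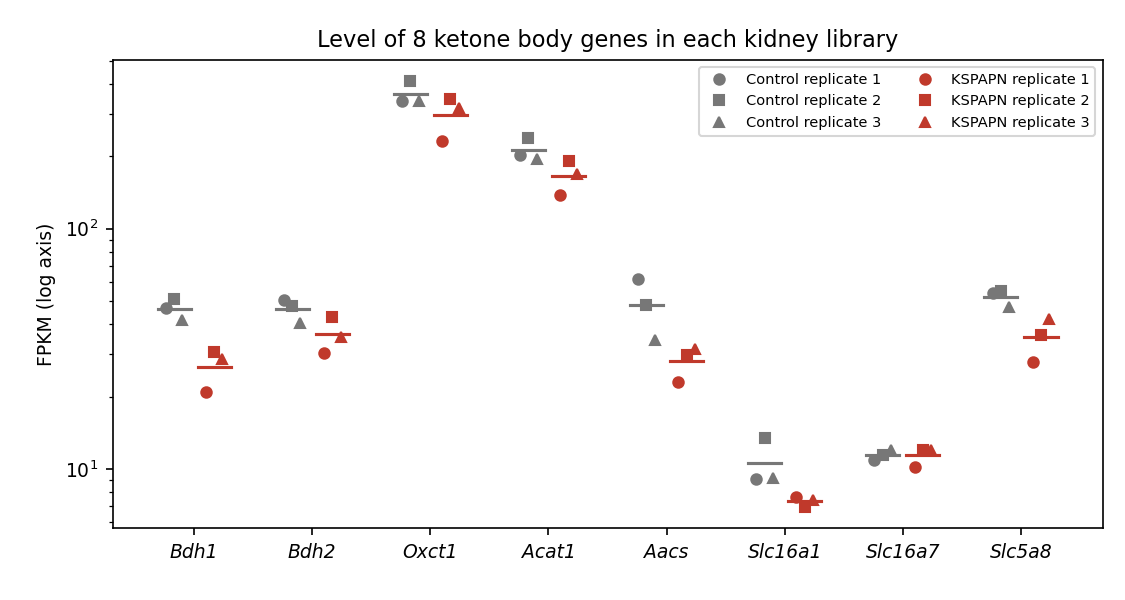
FPKM of the 8 ketone body genes in each of the 6 libraries on a log axis, with Control in grey and KSPAPN in red, a symbol for each replicate and a bar at the group mean. KSPAPN replicate 1 has the lowest value of the 6 libraries for 7 of the 8 genes, and *Slc16a7* is the gene whose group means lie closest, at 11.5 and 11.4.

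RefSeq lists start sites on GRCm38.p6 for 6 of the 8 genes, 7 in all, because *Bdh1* has an upstream and a downstream start. A count per gene does not separate the transcripts of these starts. Of 32851 listed promoters (250 bases before to 50 after a start) a median one holds 7 CG dinucleotides. *Slc16a1* has 42, more than 97% of the promoters have, *Aacs* has 30, *Slc5a8* 20, *Oxct1* 11 and *Bdh2* 6, and the upstream and downstream *Bdh1* starts have 7 and 17. The sequences before the upstream start of *Bdh1*, the gene that was called, and before the starts of both transporter genes with the larger fold changes are shown because they span this range, 5′ to 3′ on the plus strand, with CG in capitals.

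*Bdh1*, chr16:31422047-31422279: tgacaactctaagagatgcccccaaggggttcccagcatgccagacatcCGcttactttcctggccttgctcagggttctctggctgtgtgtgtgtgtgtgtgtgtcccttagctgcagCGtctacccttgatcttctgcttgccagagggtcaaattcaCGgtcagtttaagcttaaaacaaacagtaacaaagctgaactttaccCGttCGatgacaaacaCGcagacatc

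*Slc16a1*, chr3:104638414-104638663: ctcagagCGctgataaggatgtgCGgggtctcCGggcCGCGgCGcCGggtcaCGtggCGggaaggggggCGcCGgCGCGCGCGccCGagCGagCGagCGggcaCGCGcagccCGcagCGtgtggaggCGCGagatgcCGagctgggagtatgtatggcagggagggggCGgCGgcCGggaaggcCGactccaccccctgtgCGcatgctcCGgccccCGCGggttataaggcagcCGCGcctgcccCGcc

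*Slc5a8*, chr10:88885742-88885991: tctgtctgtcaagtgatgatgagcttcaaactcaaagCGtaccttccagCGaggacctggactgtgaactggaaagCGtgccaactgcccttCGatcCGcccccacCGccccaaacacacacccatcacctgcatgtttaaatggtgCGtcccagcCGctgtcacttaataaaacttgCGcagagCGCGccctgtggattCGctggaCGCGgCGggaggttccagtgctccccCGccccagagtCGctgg

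The half-site AGGTCA of nuclear receptors such as PPARA, searched on both strands, was in none of the 7 promoters, and 16.3% of all promoters hold it. No match says only that these letters are not in these windows. The GC box GGGCGG was found once in the 250 bases before *Slc16a1* and 3 times before *Slc5a8*, and within the 300 bases of the downstream *Bdh1* start. It is in 35.7% of all promoters. CCAAT occurred at *Bdh2* only, and 37.4% of promoters hold it. Genes whose KSPAPN libraries all lay below Control thus had start regions both rich in CG (*Slc16a1*) and near the median (upstream *Bdh1*).

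*Bdh1* (ENSMUSG00000046598, chr16:31422280-31458901, plus strand) encodes the mitochondrial dehydrogenase that interconverts 3-hydroxybutyrate and acetoacetate. Its FPKM was 47.0, 50.8 and 41.5 in Control replicates 1 to 3 and 20.9, 30.5 and 28.6 in KSPAPN replicates 1 to 3. Each KSPAPN library was below each Control library. The mean went from 46.4 ± 4.68 (SD, n = 3) to 26.7 ± 5.11 (SD, n = 3). The log2 fold change was -0.80 (SE 0.14, 95% interval -1.10 to -0.49), which is 0.576 times the Control level, and the adjusted p of edgeR was 0.0181. DESeq2 gave an adjusted p of 1.47e-05. An exact permutation test of the FPKM values, two-sided, gave p = 0.1, the smallest that 3 libraries against 3 allow. The call was lost when Control replicate 1, Control replicate 2 or KSPAPN replicate 3 was left out, with edgeR adjusted p of 0.0928, 0.0671 and 0.0719, while the log2 fold change stayed between -0.90 and -0.63 whichever library was left out. Counts were made without a stated strand, and exons of the antisense gene *Gm15743* overlap *Bdh1* over 533 bases. Its own counts were at most 0.952% of those of *Bdh1* in any library, and reads from the shared bases cannot be told apart.

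In whole kidney, fewer cells of a type and less RNA per cell cannot be told apart. The summed FPKM of 10 proximal tubule markers was between 2926 and 3554 in Control and between 2398 and 2542 in KSPAPN, so these groups did not overlap either. Of the 10 markers, 9 had a log2 fold change below 0 (median -0.28), against 48.1% of all genes tested. Called lower were 3, against 2.25% of all genes tested, namely *Slc22a6* (-0.46), *Miox* (-0.60) and *Slc7a13* (-1.46). The most abundant marker, *Slc34a1*, had -0.15 with an edgeR adjusted p of 0.582. The share of counts on mitochondrially encoded genes was 7.69% to 9.32% in Control and 8.41% to 12.3% in KSPAPN. The part of either in the values of the ketone body genes was not tested.

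*Bdh2* (ENSMUSG00000028167, chr3:135281221-135304426, plus strand) encodes a cytosolic dehydrogenase that also accepts 3-hydroxybutyrate. Its FPKM was 50.4, 47.5 and 40.6 in the Control libraries and 30.3, 43.0 and 35.5 in the KSPAPN libraries. The groups overlapped, because KSPAPN replicate 2 exceeded Control replicate 3. A log2 fold change of -0.34 (SE 0.13, 95% interval -0.63 to -0.058) came with an edgeR adjusted p of 0.187, and it was -0.22 without KSPAPN replicate 1. Within each library the ratio of *Bdh1* to *Bdh2* FPKM was 0.932, 1.07 and 1.02 in Control and 0.689, 0.711 and 0.805 in KSPAPN. The mitochondrial enzyme's transcript was thus lower relative to the cytosolic one in every KSPAPN library.

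*Oxct1* (ENSMUSG00000022186, chr15:4026383-4155344, plus strand) encodes succinyl-CoA:3-oxoacid CoA-transferase, the committing enzyme of ketone body oxidation, which liver lacks. It was the most abundant of the 8 genes and ranked 89 among all genes by mean FPKM. Its FPKM was 341, 411 and 341 in the Control libraries and 231, 347 and 318 in the KSPAPN libraries. KSPAPN replicate 1 stood below the other 5 libraries, and KSPAPN replicate 2 exceeded Control replicates 1 and 3. The log2 fold change was -0.28 (SE 0.15, 95% interval -0.61 to 0.045, edgeR adjusted p 0.339), and it was -0.12 without KSPAPN replicate 1 and -0.19 without Control replicate 2. *BC037032*, a transcript of the opposite strand, overlaps its exons over 467 bases and had at most 50 counts in a library.

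*Acat1* (ENSMUSG00000032047, chr9:53580522-53610382, minus strand) encodes the mitochondrial thiolase that splits acetoacetyl-CoA, and it works in both directions of the pathway. Its FPKM was 203, 238 and 195 in the Control libraries and 138, 192 and 169 in the KSPAPN libraries. The groups did not overlap, but KSPAPN replicate 2 lay just under Control replicate 3. KSPAPN differed from Control by a log2 fold change of -0.34 (SE 0.13, 95% interval -0.63 to -0.057), with 0.188 as the edgeR adjusted p. Without KSPAPN replicate 1 the log2 fold change was -0.21. *Acat1* to *Oxct1* FPKM ratios overlapped between the groups, with means of 0.581 ± 0.0113 and 0.561 ± 0.0347 (SD, n = 3 each). The ratio of *Bdh1* to *Oxct1* did not overlap, at 0.138, 0.124 and 0.122 in Control and 0.0905, 0.0881 and 0.0900 in KSPAPN. Of the 3 mitochondrial enzymes of ketone body oxidation, the transcript of the first step was therefore lower relative to that of the second in every KSPAPN library, including KSPAPN replicate 1, where all 3 were at their lowest.

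**Figure D2:**
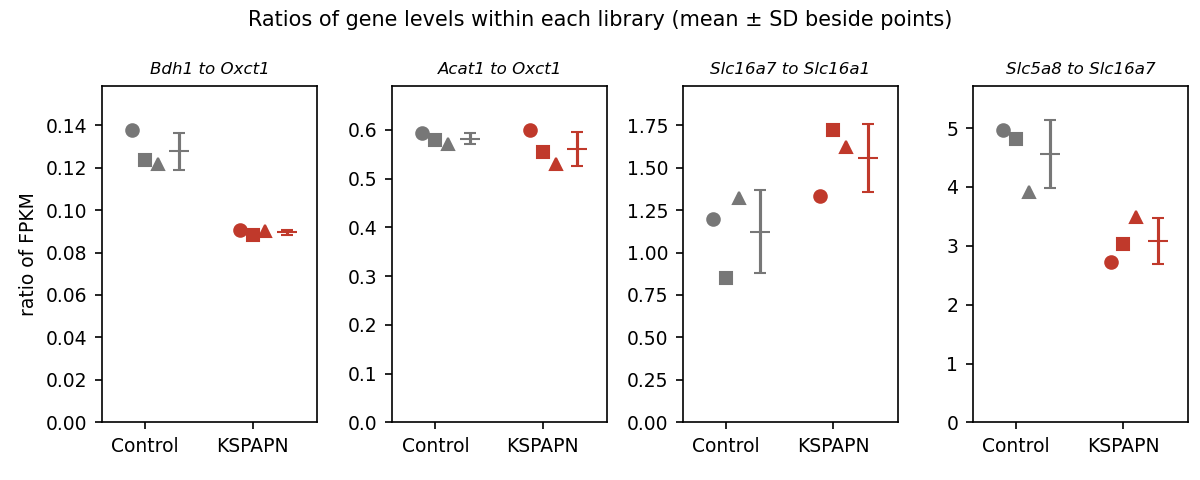
Ratios of FPKM between pairs of ketone body genes, computed within each library, for Control (grey) and KSPAPN (red), with a symbol for each replicate and the mean ± SD of 3 libraries beside the points. The *Bdh1* to *Oxct1* ratio is 0.128 ± 0.00865 in Control and 0.0895 ± 0.00130 in KSPAPN, while *Acat1* to *Oxct1* overlaps between the groups.

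*Aacs* (ENSMUSG00000029482, chr5:125475814-125517410, plus strand) encodes the cytosolic synthetase that activates acetoacetate for the synthesis of sterols and fatty acids. Its FPKM was 61.7, 48.1 and 34.2 in the Control libraries and 23.0, 29.7 and 31.6 in the KSPAPN libraries. Relative to the mean, the Control libraries were spread more than for the other 7 genes, with an SD of 13.7 on a mean of 48.0, and yet the groups did not overlap. The log2 fold change was -0.77 (SE 0.19, 95% interval -1.19 to -0.35). With an edgeR adjusted p of 0.0631 the gene was not called, and DESeq2 gave 0.00165. Leaving out Control replicate 3, the lowest Control library, gave an edgeR adjusted p of 0.0194 and a log2 fold change of -0.96, while leaving out Control replicate 1 gave 0.246 and -0.55.

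Among the transporters, *Slc5a8* (ENSMUSG00000020062, chr10:88885992-88929515, plus strand) encodes a sodium-coupled monocarboxylate cotransporter that reabsorbs lactate and ketone bodies at the apical side of the proximal tubule. Its FPKM was 53.9, 55.3 and 47.0 in the Control libraries and 27.7, 36.2 and 41.9 in the KSPAPN libraries, with no overlap. The log2 fold change was -0.56 (SE 0.14, 95% interval -0.86 to -0.25), where edgeR gave an adjusted p of 0.0643 and DESeq2 one of 0.00553. Once a trend of the counts with GC content and length was removed in each library, the edgeR adjusted p was 0.0151. With any library left out the gene was not called (edgeR adjusted p 0.0622 to 0.242). Its log2 fold change was -0.40 without KSPAPN replicate 1.

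*Slc16a1* (ENSMUSG00000032902, chr3:104638668-104658462, plus strand) encodes MCT1, a proton-coupled carrier of lactate, pyruvate and ketone bodies. It had the lowest mean level of the 8 in each group, with an FPKM of 9.06, 13.5 and 9.13 in the Control libraries and 7.61, 6.96 and 7.41 in the KSPAPN libraries. All 3 KSPAPN libraries were below Control, and Control replicate 2 stood above the other Control libraries. On the log2 scale the fold change was -0.52 (SE 0.15, 95% interval -0.85 to -0.19), and it was -0.31 without Control replicate 2. The adjusted p was 0.10 from edgeR and 0.0331 from DESeq2.

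*Slc16a7* (ENSMUSG00000020102, chr10:125219270-125389465, minus strand) encodes MCT2, a related carrier of high affinity. Its FPKM was 10.9, 11.5 and 12 in the Control libraries and 10.2, 12 and 12 in the KSPAPN libraries, which overlapped. The log2 fold change was -0.0051 (SE 0.094, 95% interval -0.21 to 0.20, edgeR adjusted p 0.986), and its sign turned to 0.061 when libraries were scaled by total counts only. With the GC and length trend removed it was -0.23 (SE 0.075, edgeR adjusted p 0.141). Within each library the ratio of *Slc16a7* to *Slc16a1* FPKM was 1.2, 0.852 and 1.32 in Control and 1.34, 1.72 and 1.62 in KSPAPN. The groups lay apart by little, with Control replicate 3 just under KSPAPN replicate 1. *Slc5a8* to *Slc16a7* gave 4.96, 4.81 and 3.91 in Control and 2.73, 3.02 and 3.49 in KSPAPN.

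**Figure D3:**
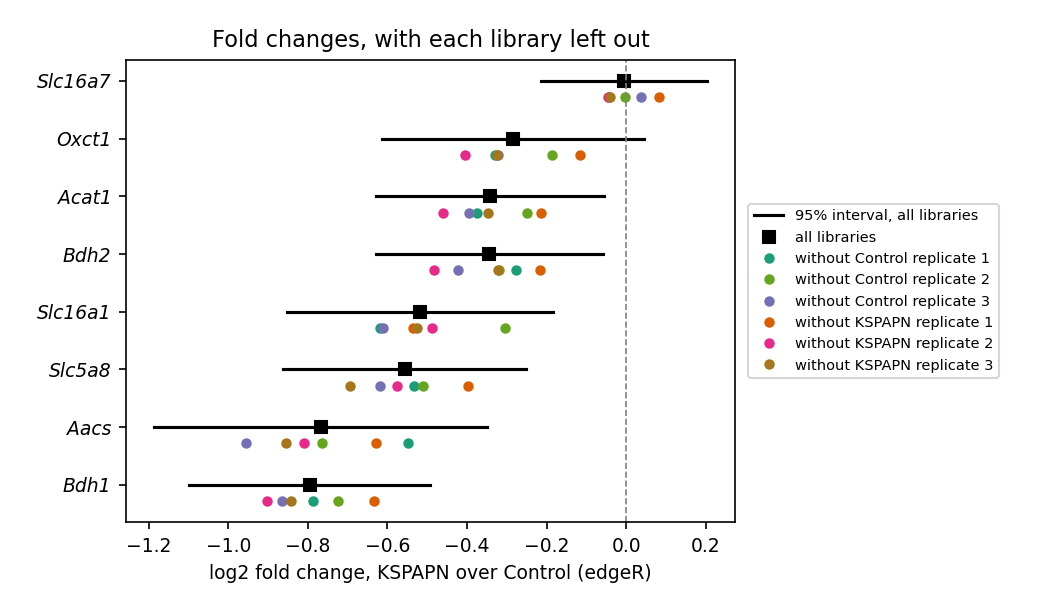
Log2 fold change of KSPAPN over Control from edgeR for the 8 genes, with all libraries (black squares, 95% interval as a line) and again without each of the 6 libraries (coloured points). *Bdh1* stays between -0.90 and -0.63 and *Aacs* between -0.96 and -0.55, while *Slc16a7* moves between -0.044 and 0.083.

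DESeq2, run on the same counts, called 4 of the 8 genes lower (*Bdh1*, *Aacs*, *Slc16a1* and *Slc5a8*), against 4.76% of all genes tested. Those 4 had the largest log2 fold changes of the 8 in edgeR as well. *Bdh2* and *Acat1*, at -0.34 each, and *Oxct1* and *Slc16a7* were called lower by neither method.

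In Control the 8 levels ran from *Oxct1* (364 ± 40.2 FPKM, SD, n = 3) and *Acat1* (212 ± 22.8) through a group of 4 near 50 to *Slc16a7* (11.5 ± 0.594) and *Slc16a1* (10.6 ± 2.54). Neighbours inside the group of 4, from *Slc5a8* (52.1) to *Aacs* (48.0), *Bdh1* (46.4) and *Bdh2* (46.2), overlapped in their ranges over the libraries, as did both carriers at the bottom. In KSPAPN *Oxct1* (298 ± 60.4) and *Acat1* (166 ± 27.1) again stood first and apart. *Bdh1* (26.7) came after *Bdh2* (36.3), *Slc5a8* (35.3) and *Aacs* (28.1), each overlapping the next in this order. *Slc16a7* (11.4 ± 1.06) lay above *Slc16a1* (7.33 ± 0.332) without overlap.

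The rest of the pathway was described with 31 other genes in 5 lists, of which 27 were tested. Of these, 12 had a log2 fold change above 0 and 15 below, with a median of -0.068, and edgeR called 1, against 2.65% of all genes tested. Unadjusted p under 0.05 in edgeR were found for 2 genes with higher and 7 with lower values in KSPAPN. Over all 16017 genes tested, they were found for 1204 with higher and 1788 with lower values. DESeq2 called 4 of the 27, and 975 of all genes tested. *Sirt3*, the mitochondrial deacetylase that acts on several enzymes of acetyl-CoA metabolism, fell from 11.5, 10.5 and 11.7 FPKM in Control to 6.62, 6.99 and 9.0 in KSPAPN. Its log2 fold change was -0.57 (SE 0.12, edgeR adjusted p 0.0388), and no KSPAPN library overlapped Control.

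The 4 tested genes of the list of other ketone body enzymes had log2 fold changes below 0. Neither edgeR nor DESeq2 called any of them, and 0 had an unadjusted p under 0.05 in edgeR. *Hmgcs1*, the cytosolic synthase of sterol synthesis, had an FPKM of 117 ± 7.78 and 103 ± 22.2 (SD, n = 3 each, log2 fold change -0.17). The cytosolic thiolases *Acat2* (-0.068) and *Acat3* (-0.34) share 35.3% and 51.1% of their 100-base stretches with other genes, each other included, so how their counts split is uncertain.

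Of the acetate-activating synthetases, *Acss2*, the cytosolic one, had an FPKM of 30.8, 28.6 and 23.9 in Control and 18.9, 21.7 and 19.4 in KSPAPN, with a log2 fold change of -0.47 (SE 0.11, edgeR adjusted p 0.0528). *Acss1*, the mitochondrial one, had -0.27 with overlapping groups. *Acss3* went the other way, at 0.825, 0.801 and 1.23 FPKM in Control and 1.53, 1.49 and 1.55 in KSPAPN (0.69, SE 0.19, edgeR adjusted p 0.0936). None of these passed the threshold in edgeR, while DESeq2 called *Acss2* lower and *Acss3* higher with adjusted p of 0.00556 and 0.0276.

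The list of monocarboxylate carriers and their partners held 14 tested genes, 9 above 0 and 5 below. None was called by edgeR, 5 had an unadjusted p under 0.05, and DESeq2 called 1 (*Slc16a9*). *Bsg*, the chaperone that brings MCT1 to the membrane, had 338 ± 7.46 and 348 ± 24.7 FPKM (log2 fold change 0.053). *Slc5a12*, a sodium-coupled lactate transporter related to *Slc5a8*, had 39.2 ± 5.56 and 42.1 ± 16.8 FPKM (0.10, edgeR adjusted p 0.864). *Slc16a14*, an orphan of the family, had 12.3, 11.3 and 13.2 FPKM in Control and 2.23, 6.63 and 8.87 in KSPAPN (-1.06, SE 0.35, edgeR adjusted p 0.144). *Slc16a9* (-0.37), *Slc16a11* (-0.36) and *Slc16a13* (-0.34) also had unadjusted p under 0.05 with lower values in KSPAPN, and *Slc16a10*, an aromatic amino acid transporter, had one with higher values (0.22). Unadjusted p under 0.05 did not go with one direction across the family of *Slc16a1*.

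Among receptors, *Hcar1*, which binds lactate, had 1.12 ± 0.235 and 1.21 ± 0.189 FPKM (0.12), *Ffar3* had 0.321 ± 0.178 and 0.232 ± 0.103 FPKM (-0.48, edgeR adjusted p 0.715), and *Hcar2*, the 3-hydroxybutyrate receptor, was under the filter on low counts. Of the regulators, *Ppara*, the nuclear receptor that drives ketogenic genes in fasted liver, had an FPKM of 10.1, 10.5 and 10.1 in Control and 7.73, 7.94 and 8.25 in KSPAPN. The groups did not overlap, and with a log2 fold change of -0.35 (SE 0.092) the edgeR adjusted p was 0.0780. *Ppargc1a*, a coactivator of mitochondrial genes, had 0.11 with overlapping groups.

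**Figure D4:**
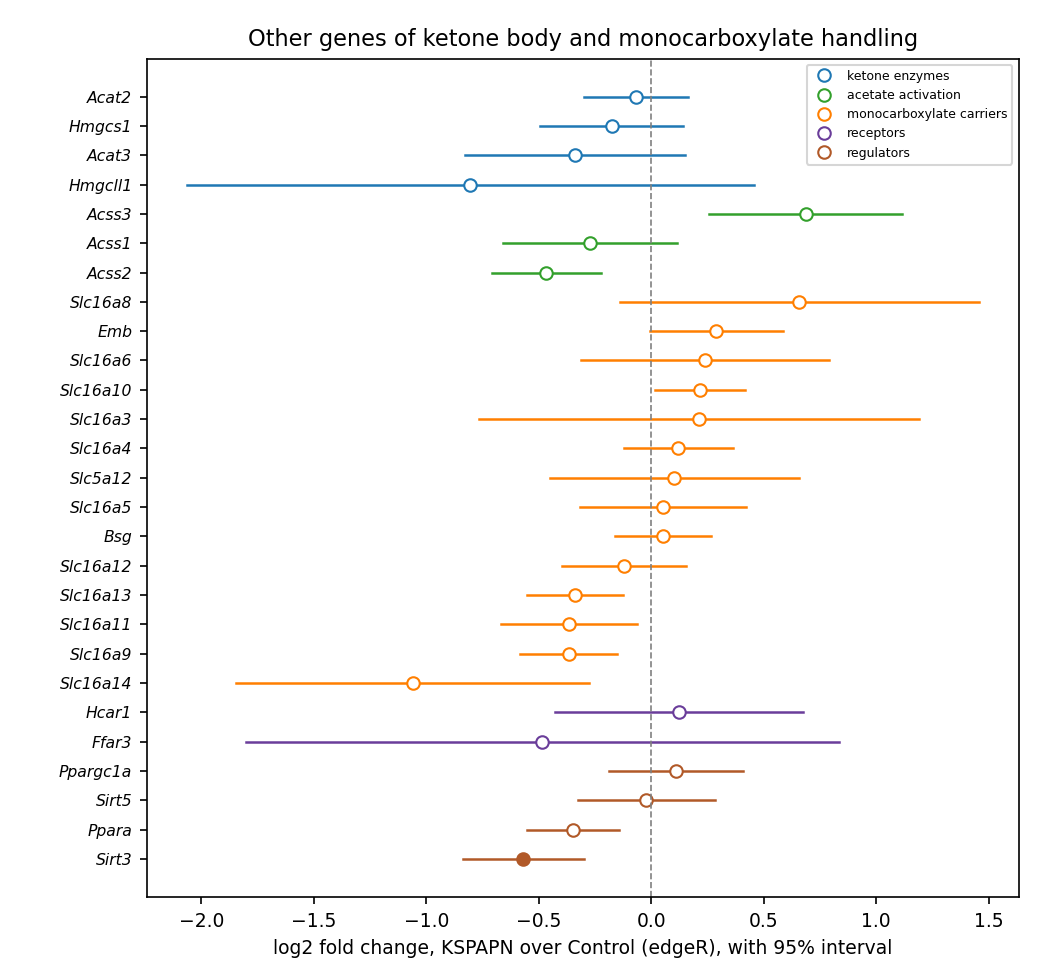
Log2 fold change of KSPAPN over Control from edgeR with its 95% interval for the 27 tested genes of the 5 other pathway lists, coloured by list, with a filled circle for an edgeR adjusted p under 0.05. *Sirt3* is the one filled circle, and the 4 other ketone body enzymes lie below 0 at between -0.81 and -0.068, each with an interval that includes 0. The -0.81 belongs to *Hmgcll1*, which had only 5 to 31 counts in a library.

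Summed FPKM of the 3 distal convoluted tubule markers did not overlap either, at 106.9 to 124.5 in Control and 58.8 to 102 in KSPAPN. Most of it was *Slc12a3*, at 87.5 to 95.3 and 55.2 to 85.5, and 2 of the 3 markers were lower and 1 higher. Nor did the sum of the 4 adipocyte markers overlap, at 8.17 to 8.66 and 8.81 to 12.7. Nearly all of it was *Fabp4*, at 7.78 to 8.47 and 8.48 to 12.2, and of the 2 adipocyte markers tested 1 was higher and 1 lower. Sums for the thick ascending limb, collecting duct, glomerulus, endothelium, leukocytes and hepatocytes overlapped between the groups. The part of these in the values of the ketone body genes was not tested. *Slc12a1*, the cotransporter of the thick ascending limb, rose with a log2 fold change of 0.52 (edgeR adjusted p 0.0437), whereas *Umod* of the same segment had -0.045. The most abundant markers of the distal convoluted tubule (*Slc12a3*, -0.36), collecting duct (*Aqp2*, 0.19), glomerulus (*Podxl*, 0.24), endothelium (*Emcn*, 0.055) and leukocytes (*Cd68*, -0.10) were not called. *Aqp2* had 537 FPKM in KSPAPN replicate 1, 242 and 227 in KSPAPN replicates 2 and 3, and 356, 278 and 257 in Control. *Umod* was highest (795) and *Slc7a13* lowest (61.5) in KSPAPN replicate 1 too, while *Slc34a1* (1185) was within the range of the other libraries. The part of this library's marker levels in the values of the ketone body genes was not tested. Text on extraction in the labels speaks of liver. The liver marker *Alb* was at most 4.46 FPKM in any library and the adipocyte marker *Lep* had a count of 1 in KSPAPN replicate 1 and 0 in the other 5 libraries, while *Apoa2* (-0.12) and *Fabp4* (0.34) were the most abundant of their lists and were not called.

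Across the 6 libraries, the log2 CPM of *Bdh1* was most like that of *Fbxo40* (Pearson r = 0.9994), *Slc10a2* (0.9991) and *Ces1d* (0.9991) among the 12248 tested genes whose mean FPKM was 1 or more. *Fbxo40* had 9.10 FPKM in Control and 3.42 in KSPAPN, *Slc10a2*, the apical sodium-dependent bile acid transporter, 16.0 and 3.44, and *Ces1d*, a carboxylesterase, 117 and 53.4. All 3 fell, with log2 fold changes of -1.41, -2.22 and -1.12 and edgeR adjusted p of 0.0117, 0.0090 and 0.0166. They were picked for following *Bdh1* in these same libraries, so their fall was set by that choice and is no separate support. *Oxct1* was most like *Ndufs1* (0.9985), a subunit of respiratory complex I, *Frrs1* (0.9952) and *Slc22a30* (0.9922), none of which was called (log2 fold changes -0.15, -0.25 and -0.39). With 6 points from 2 groups and so many genes searched, such correlations describe the libraries, and no p is given for them.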

How the data were processed

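Whole-kidney RNA of 3 Control and 3 KSPAPN pools, 3 mice each, was enriched with oligo(dT) beads and sequenced by the authors. The authors deposited raw read counts per gene for each library, and FPKM, scaled by length and a size factor of the library. Total counts were between 17183358 and 20871173. The submitters' processing notes name STAR 2.5, HTSeq 0.6.1, TopHat, DESeq2 and edgeR without roles, and no source used here gives strandedness, build or annotation. Reads carry no molecular identifiers, and nothing in the labels says that pools were prepared separately. How far the p-values measure a spread between pools or one between preparations cannot be told.

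Gene identifiers were matched to GENCODE M21 (54495 of 54532). Counts were tested with edgeR 4.0.16 in R 4.3.3 (TMM, minimum count 10, minimum total 15, quasi-likelihood, two-sided), with Benjamini-Hochberg adjustment over 16017 genes. The common dispersion was 0.0225. SE is the log2 fold change divided by the root of F, with 95% intervals from its degrees of freedom. FPKM were compared by exact permutation over 20 arrangements. Alternatives were RLE factors, total counts, no filter, DESeq2 1.42.0, limma 3.58.1 on log2(FPKM + 1) and log2(FPKM + 0.1), scaling without mitochondrially encoded genes and *Adipoq*, removal of a trend with GC content and length (splines of 5 degrees of freedom), a replicate block and each library left out. The methods were also run on simulated counts, with the same dispersion for all genes and log2 changes larger than that of any member. That run cannot tell how well changes of the members' size are found. Python 3.11.15, pandas 2.3.3, scipy 1.17.1 and matplotlib 3.10.9 were used.

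The members and lists were chosen with earlier results of these data known. Named beside the members are genes of the pathway lists that were called, had an unadjusted p under 0.05 or were among the 2 most abundant of their list, the most abundant and any called marker, and the 3 genes most like *Bdh1* and *Oxct1*. *Acat3*, *Hcar2*, *Alb* and *Lep* were named besides, and 3 genes of the pathway lists are not reported here and are left out of the counts of these lists.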

Additional observations from a re-analysis of the deposited data

How the results depend on the processing

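The 8 ketone body genes included 1 called gene in the analysis reported, where 2.65% of all genes tested were called. The number was also 1 with RLE factors, with total counts only and without mitochondrially encoded genes and *Adipoq* in the scaling. DESeq2 called 4, against 4.76% of all genes tested called lower. With every counted gene kept edgeR called 6, and there the SE of *Aacs* was 0.109, against 0.189 in the analysis reported. Limma on log2(FPKM + 1) and on log2(FPKM + 0.1) called 0 each (*Bdh1* adjusted p 0.0599 and 0.0590). The fit after removal of the GC and length trend called 2 (*Bdh1* and *Slc5a8*), the replicate block 2 and the replicate block with that trend removed 3. The numbers called over all genes follow below. With 1 library left out the number called was 0 to 2. *Bdh1* kept a log2 fold change between -0.90 and -0.63 under all 16 alternatives. The other members kept their sign except *Slc16a7*, which was 0.0606 with total counts only and ranged from -0.0444 to 0.0829 with 1 library left out (0.0369 without Control replicate 3 and 0.0829 without KSPAPN replicate 1). Its value moved furthest, to -0.227, after removal of the GC and length trend, and to -0.225 with the replicate block added, and it was called in neither.

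Every setting tested 16017 genes, except the one without a filter, which tested 29418. In the analysis reported, 63 were called higher and 361 lower. The numbers were 71 and 195 with total counts only, 212 and 763 with DESeq2, 301 and 1038 without a filter, 10 and 118 with limma on log2(FPKM + 1), 10 and 109 on log2(FPKM + 0.1), 97 and 300 after removal of the GC and length trend, 224 and 705 with the replicate block, and 187 and 491 with the replicate block and that trend removed. With 1 library left out they were 5 to 163 and 34 to 571, the fewest without Control replicate 1 and the most without KSPAPN replicate 1. The cause of these differences was not tested.

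Same-numbered libraries of both groups deviated together with correlations of 0.0537, 0.154 and 0.173, not all of which exceed 0.1, so the numbers were not taken to pair the pools. Each library correlated best with its own number, which is a hint from the data and not from the design.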
